A study of Rattus norvegicus with 48 samples.

Results

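The genes described here are the receptors for glucocorticoid hormones and 8 genes that these receptors are known to switch on, measured in the eyes of female rats. The list names 10 genes: Nr3c1, Nr3c2, Fkbp5, Zbtb16, Tsc22d3, Sgk1, Klf9, Pdk4, Mt2A and Errfi1. They were taken by symbol from 2 tables of read counts, each holding 32883 genes. A total of 9 of the 10 were found in both tables, and all 9 passed the filter on low counts in both tissues. Nr3c1, the glucocorticoid receptor itself, was not analysed here, so the list is described through its target genes and Nr3c2. The genes were chosen by their symbols as known receptor targets, with the levels in the 4 groups of each tissue already known. Values between those groups are therefore a description of these animals.

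The animals were female Long-Evans rats, an outbred pigmented strain, in 4 groups of 6. Ovariectomy (OVX), which takes out the ovaries as the chief source of oestrogen, was set against sham surgery at 2 ages. The groups were young OVX, young sham, aged OVX and aged sham, where young animals were 3 to 4 months old and aged animals, middle-aged in the submitters' wording, 9 to 10 months old. From each of the 24 animals 2 tissues were sequenced, the retina and the remaining rear wall of the eye, here the posterior eye, which made 48 libraries. The animals are numbered in order of group, so any order of handling and the group cannot be told apart. The design asks how loss of the ovaries and age bear on gene expression in each tissue.

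Glucocorticoids such as corticosterone, the main one in rats, enter cells and bind the glucocorticoid receptor, which is held ready by the chaperone Hsp90. The bound receptor moves to the nucleus, binds response elements in DNA and raises or lowers the transcription of its targets. Nr3c2, the mineralocorticoid receptor, binds the same hormone and the same elements. In the eye glucocorticoids act on fluid transport, inflammation and the matrix of the outflow pathway, and steroid treatment is a known cause of raised eye pressure.

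The stretches of DNA before 3 of the targets are shown with the motifs they hold. Promoter windows of 250 bases before and 50 after the transcription start were taken from RefSeq on the GRCr8 build, which gave 11 windows for 7 of the 9 genes. Zbtb16 and Nr3c2 had no entry. Fkbp5, Tsc22d3 and Mt2A are shown because the first 2 varied together from animal to animal in the posterior eye and the third has elements of another kind. The Fkbp5 window lies at chr20:6543506-6543805 on the minus strand. For Tsc22d3 the window is that of the start nearest the end of the gene, chrX:109009985-109010284, minus strand. The Mt2A window is chr19:10838659-10838958, also on the minus strand. Capitals mark GGGCGG (the GC box), TATAAA (the TATA box) and TGCGCNC (the core of the metal response element), found on either strand, and no marked match overlaps another motif.
Fkbp5: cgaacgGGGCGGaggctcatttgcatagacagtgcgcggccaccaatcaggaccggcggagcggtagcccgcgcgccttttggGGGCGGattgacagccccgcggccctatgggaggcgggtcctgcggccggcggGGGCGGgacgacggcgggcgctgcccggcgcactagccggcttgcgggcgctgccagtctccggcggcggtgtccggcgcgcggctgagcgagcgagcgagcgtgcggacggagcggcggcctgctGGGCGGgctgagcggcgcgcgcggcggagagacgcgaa
Tsc22d3: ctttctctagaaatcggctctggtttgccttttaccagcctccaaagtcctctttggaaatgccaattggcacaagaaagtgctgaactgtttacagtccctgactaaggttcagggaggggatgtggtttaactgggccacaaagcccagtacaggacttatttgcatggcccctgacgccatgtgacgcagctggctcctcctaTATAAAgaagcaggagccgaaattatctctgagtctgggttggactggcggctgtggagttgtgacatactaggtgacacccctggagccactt
Mt2A: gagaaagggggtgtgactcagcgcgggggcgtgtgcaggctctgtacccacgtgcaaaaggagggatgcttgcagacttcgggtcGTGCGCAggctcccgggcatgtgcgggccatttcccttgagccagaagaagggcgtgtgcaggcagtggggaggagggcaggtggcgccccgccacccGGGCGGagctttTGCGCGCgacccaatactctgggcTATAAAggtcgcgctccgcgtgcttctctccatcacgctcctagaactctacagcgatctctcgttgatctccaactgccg
The Fkbp5 window held GC boxes and no TATA box, while this Tsc22d3 window held a TATA box and no GC box. The other 2 Tsc22d3 windows, which start at 109066340 and 109065381, held 1 and 3 GC boxes and no TATA box. The Mt2A window held both, and metal response element cores besides. The full glucocorticoid response element, an inverted repeat with a short spacer, was in 0 of the 11 windows, against 0.439% of 33469 promoter windows of the same length. A single arm of it, TGTTCT, was also in 0 of 11, against 20.7% of all windows. TATAAA was in 5 of 11 windows (14.2% of all), GGGCGG in 8 (33.1%) and TGCGCNC in 1 (14.1%). These last 3 motifs were chosen after the sequences had been seen. Each match is a match of letters in this window and says nothing of binding by the receptor, whose known elements in Fkbp5 lie in introns.

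Posterior eye libraries held 11470945 to 22971367 counts and retina libraries 12916146 to 30737547. Levels are given as CPM, read counts over the TMM-scaled library total. The 10 rod photoreceptor markers summed to 82590 to 100090 CPM in the retina, and the pigment epithelium gene Rpe65 was at 6.57 to 56.4 CPM there. In the posterior eye Rpe65 was at 123 to 565 CPM and the fibroblast collagen gene Col1a1 at 798 to 3261 CPM, while the summed rod markers ran from 68.7 to 32589 CPM. The posterior eye libraries were thus a mixture that held retinal RNA in very different amounts. In such bulk samples a change in the number of cells of a type and a change in RNA per cell cannot be told apart.

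Young sham animals stood lowest of the 4 groups for the receptor targets Fkbp5, Zbtb16, Tsc22d3 and Mt2A, by group mean in both tissues. Animal 1, whose posterior eye library was the shallowest (11470945 counts), was the lowest young sham animal in that tissue for Fkbp5, Tsc22d3, Sgk1, Mt2A and Errfi1. Without it the log2 fold change of young OVX over young sham fell from 0.41 to 0.33 for Fkbp5 and from 0.74 to 0.63 for Tsc22d3. Posterior eye Tsc22d3 averaged 317 ± 66.4 CPM in young OVX rats and 189 ± 53.8 CPM in young sham rats, and 308 ± 47.3 CPM in aged OVX rats and 278 ± 66.3 CPM in aged sham rats (SD, n = 6 each). Fkbp5 was at 38.8 ± 3.63 CPM in young OVX and 29.3 ± 6.27 CPM in young sham rats, and at 47.1 ± 7.47 and 45.7 ± 5.68 CPM in aged OVX and aged sham rats. None of these differences passed an adjusted p of 0.05 in edgeR's quasi-likelihood test with Benjamini-Hochberg adjustment over all genes.

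**Figure D1:**
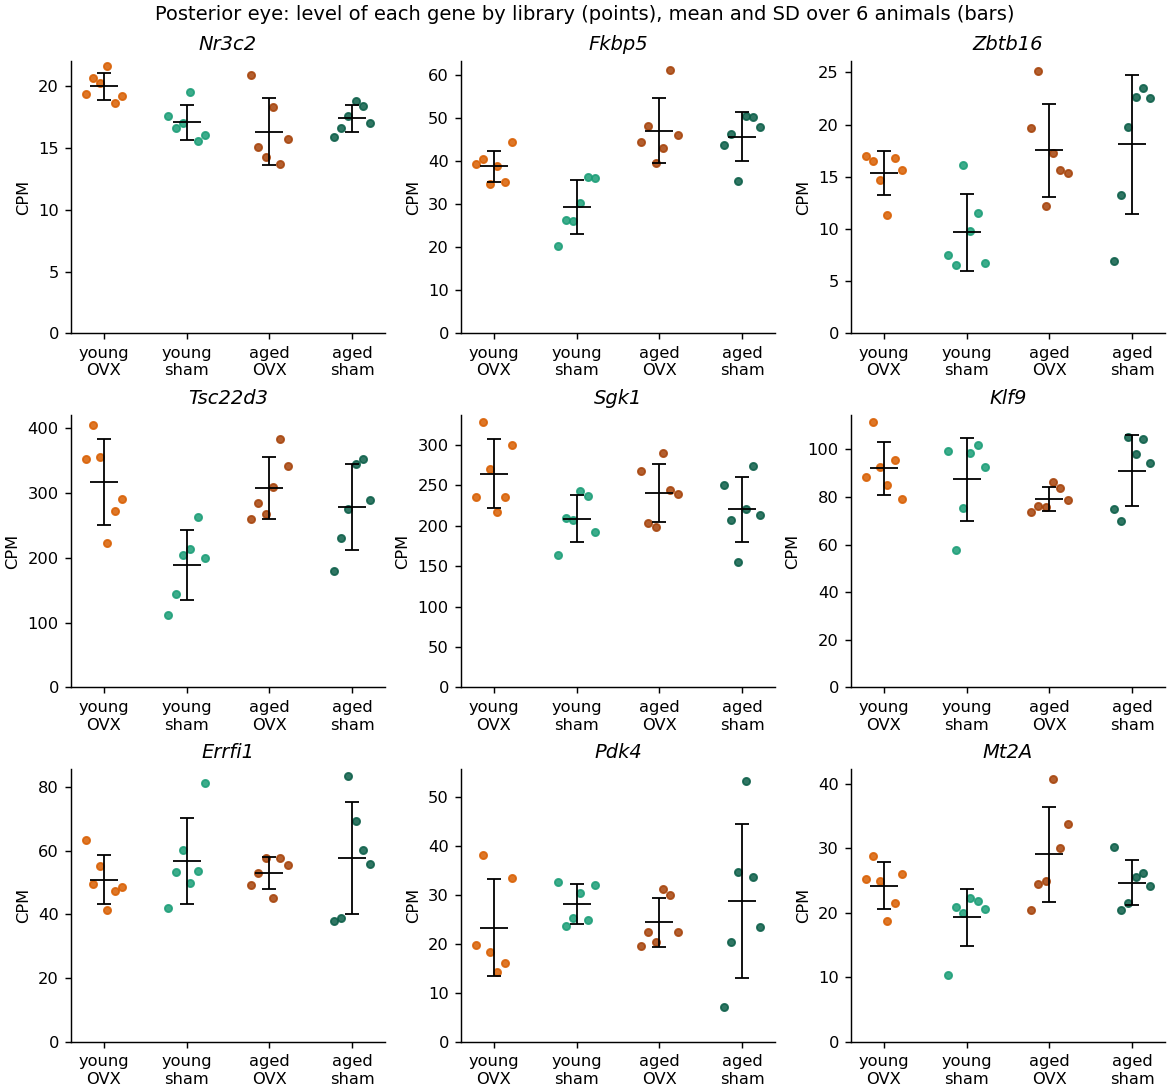
Level of the 9 genes in the posterior eye in CPM, 1 point per animal, with the mean and SD of each group of 6 as bars. Young sham animals hold the lowest group mean for Fkbp5, Zbtb16, Tsc22d3, Sgk1 and Mt2A, and the points of the groups overlap.

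The receptor Nr3c2 went a different way in each tissue in young animals. Its posterior eye level was 18.7 CPM in the lowest, 19.8 in the median and 21.6 in the highest young OVX animal, against 15.5, 16.8 and 19.5 CPM in young sham animals. The groups overlapped only through the highest sham animal, since the next was at 17.6 CPM. The log2 fold change, OVX over sham, was 0.23 ± 0.09 (SE). Aged OVX animals were at 13.7, 15.4 and 20.9 CPM, against 15.9, 17.3 and 18.8 CPM in aged sham animals, a log2 fold change of -0.09 ± 0.09, and the OVX group spanned the whole sham range. In the retina Nr3c2 was at 21.4, 23.0 and 23.7 CPM in young OVX animals and at 22.7, 26.1 and 27.7 CPM in young sham animals, so that the log2 fold change was -0.16 ± 0.07. The 2 retinal groups overlapped.

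Fkbp5 encodes a partner of Hsp90 that lowers the receptor's affinity for hormone, and its induction closes a feedback loop. Posterior eyes were at 34.7, 39.1 and 44.5 CPM in the lowest, median and highest young OVX animal, against 20.3, 28.4 and 36.4 CPM in young sham animals. This gave a log2 fold change of 0.41 ± 0.13, and the 2 highest sham animals lay within the OVX range. Aged OVX animals were at 39.7, 45.3 and 61.2 CPM and aged sham animals at 35.4, 47.1 and 50.5 CPM, with a log2 fold change of 0.04 ± 0.13. Aged sham over young sham gave 0.64 ± 0.13, the smallest p of the 9 genes in any comparison within a tissue (edgeR adjusted p = 0.176), with a small overlap of the ranges. DESeq2, run as an alternative, put the same comparison at 0.66 with an adjusted p of 0.00176. Retinal Fkbp5 spread far less. It was at 26.4, 29.2 and 31.5 CPM in young OVX animals, against 23.4, 27.2 and 29.3 CPM in young sham animals, a log2 fold change of 0.13 ± 0.06. The aged OVX retinas were at 26.7, 29.8 and 31.1 CPM and the aged sham retinas at 28.7, 30.5 and 33.6 CPM, a log2 fold change of -0.06 ± 0.06.

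Zbtb16, a zinc finger repressor of transcription also called PLZF, was among the most variable of the 9 genes. Posterior eye levels were 11.4, 16.1 and 17.0 CPM in the lowest, median and highest young OVX animal and 6.53, 8.63 and 16.1 CPM in young sham animals. Although the log2 fold change was 0.66 ± 0.26, 1 sham animal reached the OVX median. Aged OVX animals were at 12.2, 16.5 and 25.1 CPM, against 6.95, 21.2 and 23.5 CPM in aged sham animals, and the log2 fold change was -0.05 ± 0.25. The aged sham group was the widest of the 4, since its lowest animal lay near the lowest young sham animals. Retinal Zbtb16 was at 4.39, 4.88 and 6.89 CPM in young OVX rats, against 2.97, 4.16 and 4.43 CPM in young sham rats, on 47 to 138 counts per library. The log2 fold change there was 0.38 ± 0.15, with ranges that barely met. In aged retinas it was 0.08 ± 0.15, from 4.69, 6.08 and 7.24 CPM in OVX and 3.78, 5.97 and 6.78 CPM in sham animals.

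Tsc22d3 encodes GILZ, a leucine zipper protein that dampens inflammatory signalling and is induced by glucocorticoids in many cell types. Its level in the posterior eye was 223, 322 and 405 CPM in the lowest, median and highest young OVX animal, against 111, 202 and 263 CPM in young sham animals. This log2 fold change of 0.74 ± 0.19 was the largest of the 9 genes for OVX in young rats, and the groups overlapped only in the lowest OVX and the highest sham animal. Across 34 alternatives, 10 in the fit or processing and 24 that each left out 1 animal, it ran from 0.63 to 0.86. The low end came without young sham animal 1 and the high end without young sham animal 5. Aged OVX animals were at 260.0, 297 and 383 CPM and aged sham animals at 179, 282 and 352 CPM, a log2 fold change of 0.15 ± 0.19. In the retina the young groups were closer, with 88.5, 94.0 and 99.3 CPM in OVX and 76.8, 84.6 and 93.1 CPM in sham animals, a log2 fold change of 0.15 ± 0.05. In aged retinas it was -0.02 ± 0.05.

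Klf9, a Krüppel-like factor that answers to glucocorticoid and thyroid hormones, differed little between groups. Over all 24 posterior eye libraries it ran from 57.7 to 112 CPM, with log2 fold changes for OVX of 0.07 ± 0.12 in young and -0.20 ± 0.12 in aged animals. Its retinal levels were among the tightest, at 98.6, 108 and 112 CPM in aged OVX animals and 105, 116 and 120.0 CPM in aged sham animals. The log2 fold change of -0.10 ± 0.04 there was smaller than the range of either group.

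Sgk1, a kinase that promotes sodium uptake through the epithelial sodium channel, was at 216, 253 and 328 CPM in the lowest, median and highest posterior eye of young OVX rats, against 164, 209 and 243 CPM in young sham rats. Its log2 fold change was 0.34 ± 0.13 in young and 0.13 ± 0.13 in aged animals, and the ranges overlapped at both ages. In the retina it was 0.07 ± 0.07 in young and 0.00 ± 0.07 in aged animals. Errfi1, a feedback inhibitor of the epidermal growth factor receptor, lay at 37.98 to 83.4 CPM in the posterior eye and 21.6 to 33.6 CPM in the retina. Its log2 fold changes for OVX were -0.16 ± 0.17 in young and -0.12 ± 0.17 in aged posterior eyes, each smaller than its own error.

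Pdk4 blocks pyruvate dehydrogenase and so turns cells from glucose to fat as fuel. It had the widest spread of the 9 genes among animals in the posterior eye, from 7.00 to 53.3 CPM, and both extremes were aged sham animals. Its log2 fold changes for OVX, -0.27 ± 0.31 in young and -0.24 ± 0.31 in aged rats, were below their errors. Without animal 16 of the aged sham group the aged value was 0.01, and without animal 8 or 10 of the young OVX group the young value was -0.47 or -0.15. In the retina only 3 to 20 counts per library fell on Pdk4, and a difference between groups was not detectable at this depth.

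Mt2A encodes a metallothionein, a small protein that binds zinc and copper, and its reads may be shared with close copies of the gene. Posterior eyes were at 18.7, 25.1 and 28.8 CPM in the lowest, median and highest young OVX animal, against 10.4, 20.7 and 22.3 CPM in young sham animals. The log2 fold change was 0.32 ± 0.17 in young and 0.24 ± 0.17 in aged animals. It was 0.21 in young animals without animal 1 of the sham group, and 0.11 in aged animals without animal 22 of the OVX group. In the retina it was at 3.31, 4.03 and 4.92 CPM in young OVX rats and 2.22, 2.68 and 3.83 CPM in young sham rats, a log2 fold change of 0.51 ± 0.21 with overlapping ranges. In aged retinas it was -0.09 ± 0.20.

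**Figure D2:**
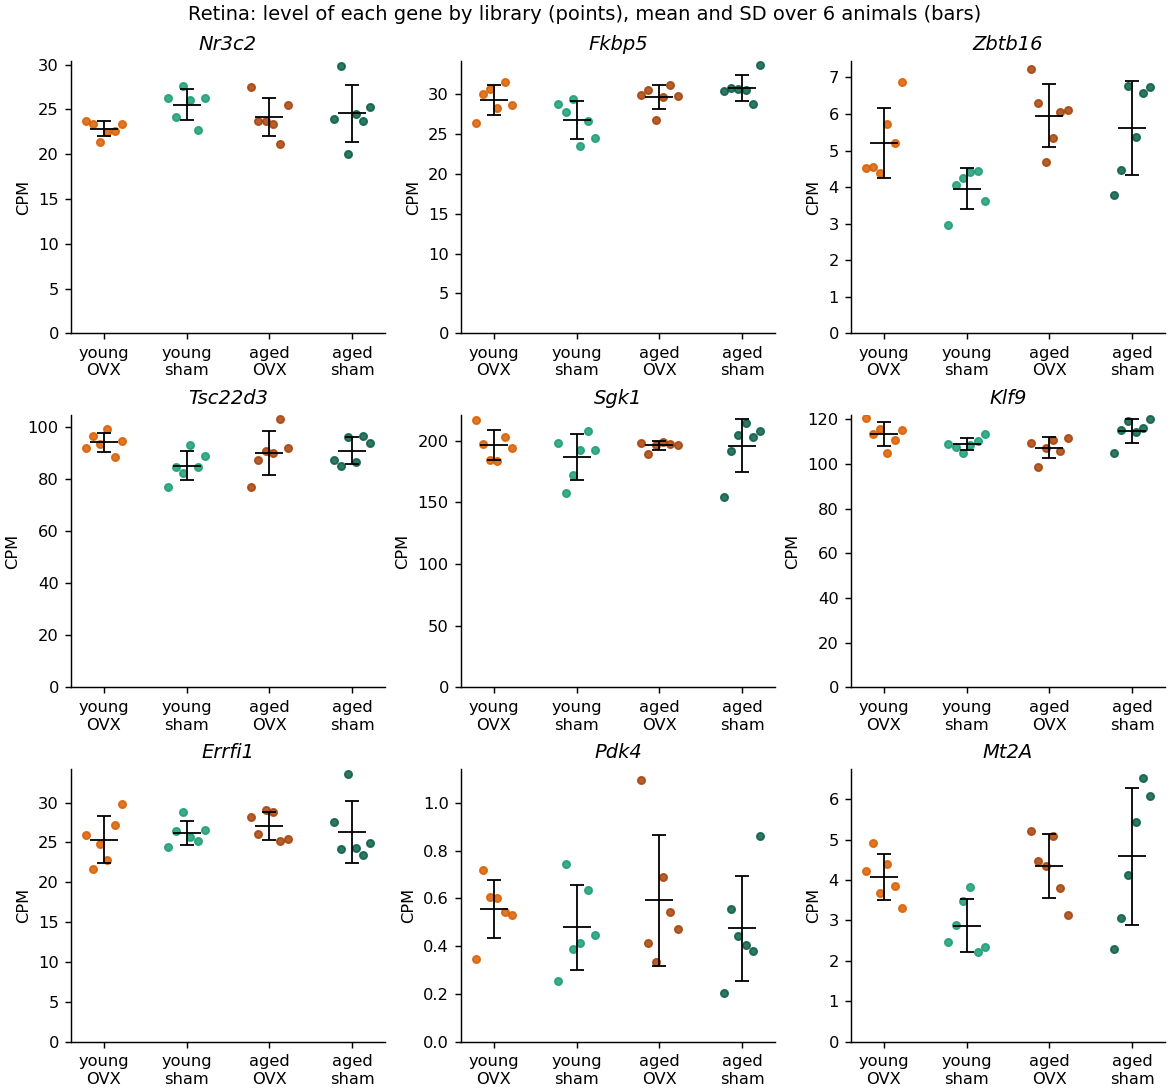
Level of the 9 genes in the retina in CPM, 1 point per animal, with the mean and SD of each group of 6 as bars. Fkbp5, Zbtb16, Tsc22d3 and Mt2A have their lowest group mean in young sham animals, and Pdk4 stays near 1 CPM or below.

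In young posterior eyes 7 of the 9 genes lay above 0 for OVX over sham, with a median log2 fold change of 0.32 beside -0.01 over all 16401 genes tested. Of the 9, 0 were called at an adjusted p under 0.05, where 0.0061% of all genes were. An unadjusted p under 0.05 was reached by 5 (Tsc22d3, Fkbp5, Zbtb16, Nr3c2 and Sgk1), each above 0, beside 6.24% of all genes. In aged posterior eyes 4 lay above 0 and 5 below, 0 were called (0.0% of all genes) and 0 passed the unadjusted p, which 2.57% of all genes did. Averaged over both ages, 0 were called (0.0%) and 4 reached the unadjusted p, Tsc22d3, Fkbp5, Sgk1 and Mt2A, each above 0 (5.72% of all genes). With limma-voom and with DESeq2 the count called was also 0 in these 3 comparisons.

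In the retina of young rats 0 of the 9 were called, beside 0.0194% of 15481 genes. The unadjusted p was reached by 5, Tsc22d3, Zbtb16, Mt2A and Fkbp5 above 0 and Nr3c2 below, beside 11.7% of all genes. In aged retinas 0 were called (0.00646% of all genes) and 1, Klf9, reached the unadjusted p (6.47%). Between these aged groups pigment epithelium markers lay below 0 for 8 of 9 genes, 7 of them at the unadjusted p (median log2 fold change -1.1). Lens markers lay above 0 for 11 of 11 there (median 1.09). Over both ages 0 were called (0.0517%) and 1, Zbtb16, reached it (10.8%). Marker lists moved between the same young retinal groups. Pigment epithelium markers lay above 0 for 7 of 9 genes (6 of them at the unadjusted p, median log2 fold change 0.83). Their mean log2 CPM was 5.15 ± 0.25 in young OVX and 4.59 ± 0.27 in young sham retinas (SD, n = 6 each). Their summed level, in which the abundant markers weigh most, was 1100 to 1333 CPM in young OVX and 1111 to 1292 CPM in young sham retinas. Melanocyte markers were above 0 for 6 of 6 (median 0.76), at 59.5 to 129 CPM in young OVX and 36.1 to 78.4 CPM in young sham retinas. The melanocyte list holds pigment genes, which do not by themselves tell melanocytes from pigment epithelium. Scleral fibroblast markers were above 0 for 6 of 6 (median 0.50), at 63.5 to 134 CPM in young OVX and 45.8 to 102 CPM in young sham retinas. Skeletal muscle markers were below 0 for 6 of 6 (median -1.36), at 20.1 to 85.8 CPM in young OVX and 20.4 to 404 CPM in young sham retinas. Their part in the retinal values was not tested, since the 1 fit that had the pigment epithelium markers as a term was read only for calls. These counts are those of a list made with the data known, and nothing is read from them beyond the description. In the retina, limma-voom and DESeq2 also called 0.

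**Figure D3:**
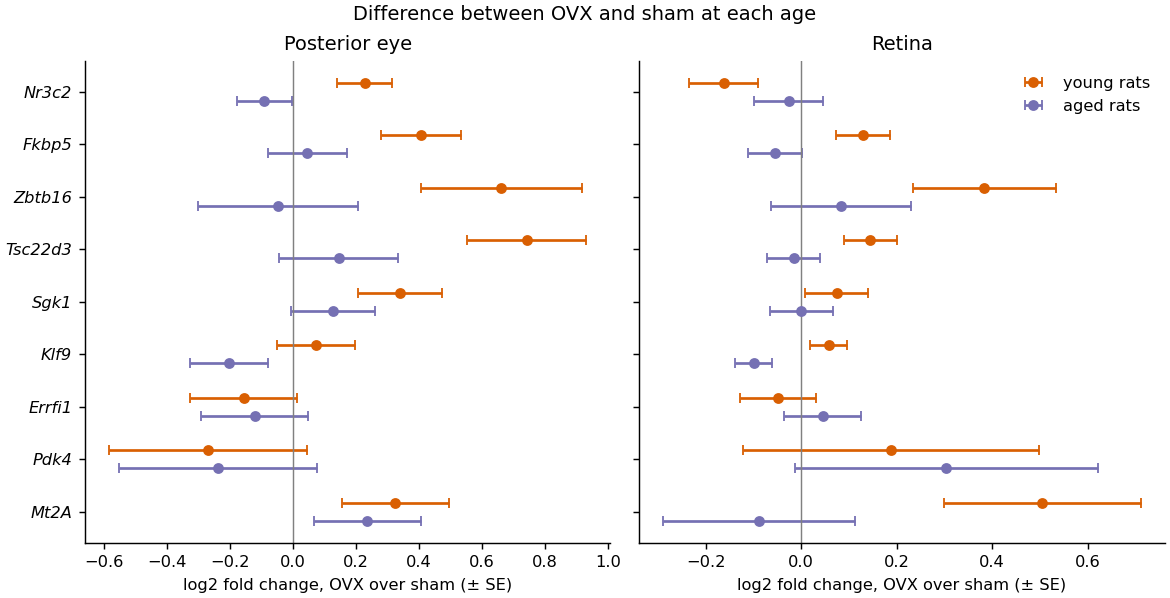
Log2 fold change of OVX over sham in young and in aged rats for each gene, with its SE, in the posterior eye on the left and the retina on the right. In the posterior eye Tsc22d3 stands at 0.74 in young and 0.15 in aged rats, and Fkbp5 at 0.41 in young and 0.04 in aged rats.

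Aged sham animals were set against young sham animals to describe age with the ovaries in place. Aged sham over young sham in the posterior eye was 0.90 ± 0.26 for Zbtb16, 0.55 ± 0.19 for Tsc22d3 and 0.35 ± 0.17 for Mt2A on the log2 scale, besides the 0.64 for Fkbp5. Of the 9, 0 were called (0.0% of all genes) and 3 reached the unadjusted p (2.93%), Fkbp5, Zbtb16 and Tsc22d3. In the retina the same comparison gave 0.69 ± 0.20 for Mt2A, 0.50 ± 0.15 for Zbtb16 and 0.20 ± 0.06 for Fkbp5, with 0 called (0.0388%) and these 3 at the unadjusted p (10.7%). These values share the young sham animals with the OVX comparison in young rats, so the 2 sets are not independent. Between the posterior eye groups lens markers lay below 0 for 11 of 11 genes (median log2 fold change -1.27) and rod markers for 10 of 10 (-0.26). Pigment epithelium markers lay below 0 for 9 of 9 (-0.24) and melanocyte and endothelial markers for 6 of 6 each. Adipocyte (median 0.34) and skeletal muscle markers lay above 0 for 7 of 8 each. Their part in the posterior eye values was not tested. Between the same retinal groups, pigment epithelium markers lay above 0 for 8 of 9 genes (median log2 fold change 0.72) and melanocyte markers for 5 of 6 (0.38). Lens markers lay below 0 for 11 of 11 (median -1.83). Skeletal muscle markers did so for 6 of 6 and scleral fibroblast markers for 4 of 6. Their part in the retinal values was not tested, since the fits with the pigment epithelium or lens markers as a term were read only for calls.

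Aged OVX animals were then set against young OVX animals. Aged OVX over young OVX in the posterior eye gave 0.28 ± 0.13 for Fkbp5 and -0.29 ± 0.09 for Nr3c2, the only 2 at the unadjusted p (10.1% of all genes), and 0 were called (0.0%). Between these groups lens markers lay below 0 for 11 of 11 genes, 10 of them at the unadjusted p (median -2.31), and rod markers for 10 of 10. The part of these markers in the posterior eye values was not tested. In the retina Klf9, at -0.08 ± 0.04, was alone at the unadjusted p (9.23%), and 0 were called (0.0711%). Between these retinal groups pigment epithelium markers lay below 0 for 7 of 9 genes, 2 of them called (median -1.15), and lens markers for 11 of 11 (median -0.62). The change of the OVX effect with age, aged minus young, was -0.60 ± 0.27 for Tsc22d3, -0.71 ± 0.36 for Zbtb16, -0.36 ± 0.18 for Fkbp5 and -0.32 ± 0.13 for Nr3c2 in the posterior eye. There 0 were called (0.0% of all genes), and Tsc22d3 and Nr3c2 were the 2 at the unadjusted p (2.97%). In the retina the change was -0.59 ± 0.29 for Mt2A, -0.18 ± 0.08 for Fkbp5, -0.16 ± 0.08 for Tsc22d3 and -0.16 ± 0.05 for Klf9, which were the 4 at the unadjusted p (6.21%), with 0 called (0.0452%). A difference of the OVX effect between the ages was thus not established for any of the 9 genes. For the same retinal change, pigment epithelium markers lay below 0 for 7 of 9 genes, 4 of them called (median -1.85). Melanocyte markers lay below 0 for 6 of 6 (median -1.11) and scleral fibroblast markers for 5 of 6. Lens markers lay above 0 for 11 of 11 and skeletal muscle markers for 6 of 6. The part of these markers in the retinal values was not tested, since the fits with pigment epithelium or lens markers as a term were read only for calls.

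Other things moved between the same young groups. Immediate early genes, which respond fast to any stimulation of a cell, lay below 0 for 16 of 16 tested genes in the posterior eye for young OVX over young sham, with a median log2 fold change of -0.33 and 0 called. For aged sham over young sham 15 of 16 lay below 0 as well (median -0.31), and for aged OVX over aged sham 8 lay above 0 and 8 below. Both low values share the young sham animals. Fos was at 17.0 ± 3.12 CPM in young OVX and 42.1 ± 12.3 CPM in young sham animals, and Egr1 at 45.6 ± 9.98 and 106 ± 32.3 CPM (SD, n = 6 each). In the retina 13 of 16 lay below 0. The clock list shares Per1 with the glucocorticoid-induced list. It had 5 genes higher and 2 lower of 17 at the unadjusted p in young posterior eyes, beside 6.24% of all genes. The time of day of dissection is not given in the sources used here.

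Markers of neighbouring tissues differed as well. Melanocyte markers lay above 0 for 6 of 6 tested genes in young posterior eyes, and their summed level was 2038 to 4932 CPM in young OVX and 1265 to 4044 CPM in young sham animals. Sebaceous and meibomian gland markers were below 0 for 7 of 8, at 24.4 to 167 CPM in young OVX and 25.8 to 2324 CPM in young sham animals. Lens markers lay above 0 for 11 of 11 (median log2 fold change 0.74), at 70.1 to 3367 CPM in young OVX and 173 to 2162 CPM in young sham animals. Müller glia markers lay above 0 for 7 of 8 (median 0.31), at 3880.0 to 4862 CPM in young OVX and 3283 to 4260.4 CPM in young sham animals. Rod markers lay below 0 for 10 of 10 (median -0.35, 0 at the unadjusted p). Their sum ran from 68.7 to 32589 CPM in young OVX (median 2835) and from 675 to 30198 CPM in young sham animals (median 11401). Scleral fibroblast markers lay above 0 for 8 of 9 and endothelial markers for 6 of 6 (medians 0.18 and 0.17). Pigment epithelium markers lay below 0 for 7 of 9 (median -0.06). With the sebaceous, rod, muscle or fat marker level as a covariate in turn, 0 of the 9 genes were called in any posterior eye comparison, and likewise in the retina with the lens or pigment epithelium level. The fits without these terms also called 0, so the unchanged count does not tell whether makeup bears on the values. The part of the immediate early, clock, melanocyte, lens, Müller glia, scleral fibroblast, endothelial and pigment epithelium genes in the posterior eye values was not tested.

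The 2 tissues differed far more than the groups. All 9 genes were called between the posterior eye and the retina (edgeR, 48 libraries), but so were 93.0% of 17153 genes. Of the 9, 7 were called higher in the posterior eye (47.8% of all genes) and 2 lower (45.2%). Pdk4 was at a median of 25.4 CPM in the posterior eye (7.12 to 56.9) and 0.477 CPM in the retina (0.192 to 1.06), a log2 fold change of 5.73 ± 0.18 (adjusted p = 4.56e-30). Mt2A was at 25.3 CPM (10.7 to 42.5) in the posterior eye and 3.65 CPM (2.12 to 6.29) in the retina, a log2 fold change of 2.76 ± 0.10 (adjusted p = 1.07e-27). Tissue ranges of both genes were wholly apart.

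For Tsc22d3 the medians were 292 CPM in the posterior eye and 86.3 CPM in the retina, and for Zbtb16 16.5 and 4.69 CPM, with log2 fold changes of 1.71 ± 0.07 and 1.66 ± 0.11. Errfi1 was higher by 1.19 ± 0.07, Fkbp5 by 0.58 ± 0.05 and Sgk1 by 0.39 ± 0.05 on the log2 scale. Nr3c2, at -0.33 ± 0.04, and Klf9, at -0.21 ± 0.05, were lower in the posterior eye. All 24 animals had the higher value in the posterior eye for Pdk4, Mt2A, Tsc22d3, Zbtb16 and Errfi1, while 23 did for Fkbp5, 22 for Sgk1, 3 for Nr3c2 and 2 for Klf9. Posterior eye libraries held rod RNA in varying amounts. Retina libraries in turn held lens RNA, with lens markers summed to 3448 to 63809 CPM. Their group medians ran from 9366 CPM in aged sham to 40711 CPM in young sham retinas. These are thus differences between 2 mixed tissue pieces.

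Whether OVX acted differently in the 2 tissues was tested as an interaction averaged over both ages. Of the 9, 0 were called (0.00583% of all genes), and 4 had an unadjusted p under 0.05, beside 4.94% of all genes. Tsc22d3 had the largest of these, with an OVX effect higher by 0.39 ± 0.14 in the posterior eye on the log2 scale (edgeR adjusted p = 0.841). Sgk1, Fkbp5 and Nr3c2 followed at 0.21 ± 0.10, 0.20 ± 0.10 and 0.17 ± 0.08. The count of 4 was not steady: it was 1 without animal 11, 14, 16, 18, 19 or 20.

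The 2 libraries of an animal allow a question that the groups do not enter, whether an animal high for a gene in one tissue was also high in the other. Group means were removed from log2 CPM first. Over 24 animals Zbtb16 had the closest relation, with Pearson's r = 0.62 (permutation p = 0.00426 within groups) and Spearman's ρ = 0.56 (permutation p = 0.00899). Without the 2 animals farthest from the median in the retina r was 0.61. Within the groups of 6, r was -0.31 in young OVX, 0.54 in young sham, 0.69 in aged OVX and 0.89 in aged sham animals. Of all 14773 genes measured in both tissues, 1.39% had an r as high, and after adjustment over all of them Zbtb16 was not called (linear model across genes, adjusted p = 0.185).

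Tsc22d3 had r = 0.46 (permutation p = 0.0215) and ρ = 0.42 (permutation p = 0.058), but r dropped to 0.30 without the 2 extreme animals, so this relation rests on them. Fkbp5, in contrast, had r = -0.24 (permutation p = 0.357). The other 6 genes had r between -0.11 and 0.32. In all 9 relations were computed, and 0 of 9 were called, beside 0.643% of all genes called with a positive slope. The median r over all genes was 0.07.

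**Figure D4:**
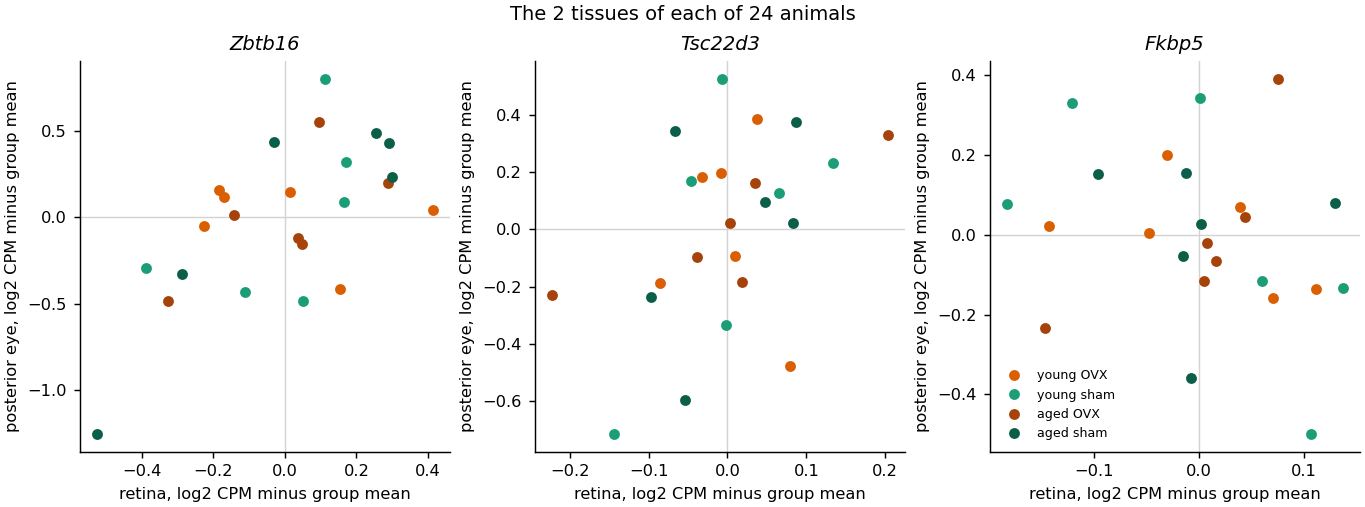
Posterior eye against retina for Zbtb16, Tsc22d3 and Fkbp5, as log2 CPM minus the group mean, 1 point per animal, coloured by group. The points of Zbtb16 rise to the right (r = 0.62), those of Tsc22d3 less so (r = 0.46), and those of Fkbp5 do not (r = -0.24).

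Within the posterior eye, animals high for Fkbp5 tended to be high for Tsc22d3 as well. With group means removed, r was 0.60 over 24 libraries (permutation p = 0.00774) and ρ 0.55 (permutation p = 0.0112), and r was 0.47 without the 2 libraries farthest from the Fkbp5 median. Only 0.61% of 16400 genes had an r as high, and adjusted over all genes the relation was not called (linear model, adjusted p = 0.573). It was uneven between groups, with r of 0.02 in young OVX, 0.86 in young sham, 0.77 in aged OVX and 0.38 in aged sham animals. Sgk1 had r = 0.49 (permutation p = 0.0178, adjusted p = 0.759) and r = 0.38 without those 2 libraries. Mt2A had r = 0.48 (permutation p = 0.0492, adjusted p = 0.768), which dropped to 0.18 and so rests on them. For Zbtb16 r was only 0.14. A total of 8 relations were computed in each tissue and 0 were called, beside 0.0% of all genes in either tissue.

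Retinal Fkbp5 had no such companion among the 9 genes: r with Tsc22d3 was -0.30 (permutation p = 0.167) and the highest was 0.32, with Pdk4. The genes of any kind most like Fkbp5 over 24 posterior eye libraries, with mean CPM of 2 or more, were Pou3f3 (r = 0.75), Zfp326 (0.74), Nudt12 (0.73), Cdkn2aipnl (0.73) and Eda (0.71), at an adjusted p of 0.416 each. In the retina they were Cic (r = 0.74), Sp7 (0.66), Smc3 (0.66), Ecm1 (0.65) and Ythdc1 (0.65), at an adjusted p of 1.0. The 2 sets had no gene in common.

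A list of 22 other genes known to be induced by glucocorticoids gave a further reading, and 20 of them were tested in the posterior eye. Tsc22d3 followed the mean level of these 20 genes closely there, both taken from the same libraries, with r = 0.78 and ρ = 0.78 (permutation p = 2e-05 and 0.00013, with 1e-05 the smallest that 100000 resamples can give). Adjusted over the 270 relations computed between the 9 genes and the gene lists, its p was 0.0054. The share of all genes that follow this list as closely was not computed, so the relation is not shown to be particular to Tsc22d3. The relation held in each group, at 0.89 in young OVX, 0.77 in young sham, 0.85 in aged OVX and 0.80 in aged sham animals, and at 0.75 without the 2 extreme animals. Zbtb16 (r = 0.52), Pdk4 (0.51), Mt2A (0.49) and Klf9 (0.47) were next, at adjusted p of 0.115, 0.174, 0.184 and 0.247, and Fkbp5 was at 0.19 (0.688). In the retina, where 19 of the list were tested, the highest was Sgk1 at r = 0.52 (adjusted p = 0.184), and Tsc22d3 was at 0.28.

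Several of the 9 genes also went with the makeup of the posterior eye piece. Sgk1 followed 6 melanocyte markers (r = 0.70, ρ = 0.68, adjusted permutation p = 0.018), with r from 0.57 to 0.93 in the groups and 0.69 without the 2 extreme animals. Mt2A followed the same markers (r = 0.68, ρ = 0.65, adjusted permutation p = 0.0448), at 0.53 without those animals. The melanocyte markers are pigment genes, so neither relation tells melanocytes from pigment epithelium. Errfi1 went with 8 adipocyte markers (r = 0.62, ρ = 0.57, adjusted permutation p = 0.018). Pdk4 went with 8 skeletal muscle markers (r = 0.76, ρ = 0.57, adjusted permutation p = 0.0448), and r was 0.46 without 2 animals, one of which was the aged sham animal with the least muscle and the lowest Pdk4. Skeletal muscle markers summed to 12759 to 38164 CPM in young OVX, 20135 to 33257 CPM in young sham, 16857 to 36393 CPM in aged OVX and 8655 to 38724 CPM in aged sham animals. With rod markers no relation reached an adjusted p of 0.05. The share of all genes that follow these marker lists as closely was not computed. The part of tissue makeup in the levels of Sgk1, Mt2A, Errfi1 and Pdk4 was not tested beyond these correlations, since the covariate fits were read only for calls.

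**Figure D5:**
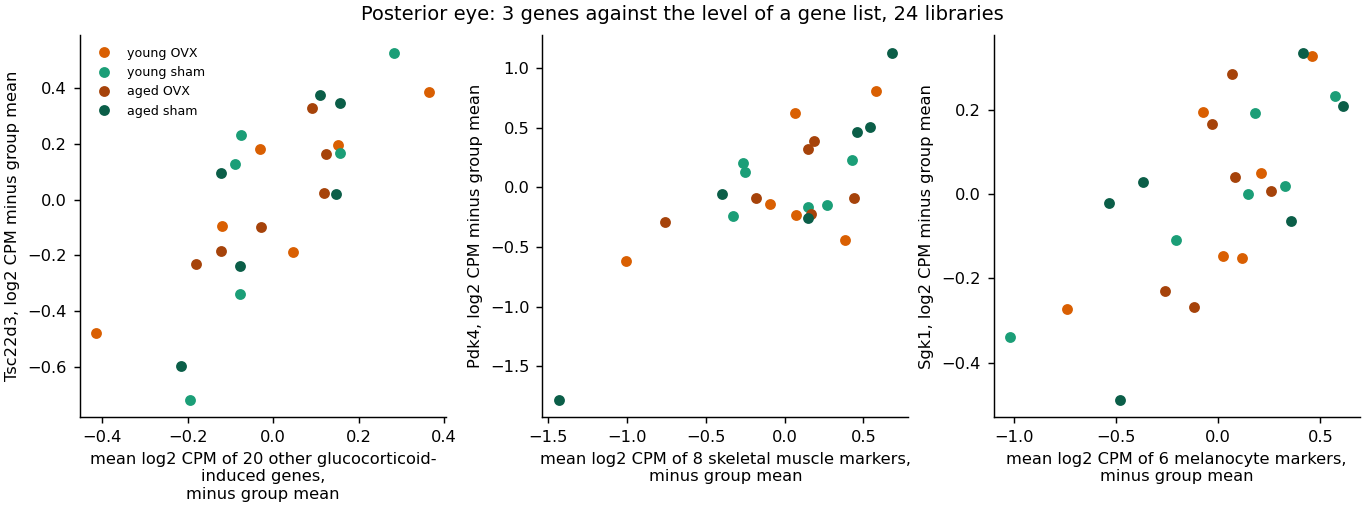
Posterior eye level of Tsc22d3, Pdk4 and Sgk1 against the mean log2 CPM of 20 other glucocorticoid-induced genes, 8 skeletal muscle markers and 6 melanocyte markers, all minus the group mean, 1 point per library. Tsc22d3 rises with the induced genes (r = 0.78), and 1 aged sham library lies far below the rest in the Pdk4 panel.

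The mean log2 CPM of the other glucocorticoid-induced genes in the posterior eye was 5.38 ± 0.26 in young OVX and 5.32 ± 0.18 in young sham animals. It was 5.43 ± 0.13 in aged OVX and 5.42 ± 0.16 in aged sham animals (SD, n = 6 each). In the retina the 4 means were 4.09 ± 0.12, 3.95 ± 0.13, 4.01 ± 0.11 and 4.08 ± 0.13 in the same order. Young sham animals had the lowest mean in both tissues, though the posterior eye means lay closer together than their SDs. For young OVX over young sham in the posterior eye, 12 of 20 lay above 0 and 8 below, with a median log2 fold change of 0.05, and 0 were called. At the unadjusted p 5 were higher and 2 lower, beside 6.24% of all genes. Hif3a, a hypoxia-inducible factor subunit, was at 1.24 ± 0.40 CPM in young OVX and 0.484 ± 0.322 CPM in young sham animals, a log2 fold change of 1.31 ± 0.37, on 1 to 38 counts per library. In aged animals it went the other way, at 0.762 ± 0.271 CPM in OVX and 1.42 ± 0.40 CPM in sham animals (-0.89 ± 0.36). The change between the ages, -2.21 ± 0.52, had an edgeR adjusted p of 1.0. Angptl4, a lipase inhibitor, was at -0.65 ± 0.19 and Dusp1, a phosphatase of MAP kinases, at -0.63 ± 0.26 in young animals, so these targets lay on the opposite side from Tsc22d3. Bcl6, a transcriptional repressor, was at 0.36 ± 0.15.

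In aged posterior eyes 13 of the 20 lay above 0, with a median of 0.05 and 0 called. In young retinas 13 of 19 lay above 0 with a median of 0.10 and in aged retinas 5 of 19 with a median of -0.06, and 0 were called in both. Cavin2, a protein of caveolae, had the smallest p in young retinas, at 0.64 ± 0.15 (edgeR adjusted p = 0.147), from 8.74 ± 2.50 CPM in OVX and 5.56 ± 0.90 CPM in sham animals. Between the tissues 16 of the 20 were called higher in the posterior eye (47.8% of all genes) and 2 lower (45.2%), with a median of 1.74 beside 0.05 over all genes.

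The receptor's partners, from Hsp90 and its co-chaperones to co-activators, co-repressors and the enzymes that supply active hormone inside cells, numbered 19 tested genes in each tissue. For young OVX over young sham, 8 lay above 0 and 11 below in the posterior eye and 11 above and 8 below in the retina, and 0 were called in either. Hsd11b1, which regenerates active glucocorticoid, had the smallest p in young posterior eyes, at 20.5 ± 7.12 CPM in OVX and 56.7 ± 47.3 CPM in sham animals. Its log2 fold change was -1.47 ± 0.58 (edgeR adjusted p = 0.725), and young sham animals ranged from 11.4 to 133 CPM. Smarca4, the motor of a chromatin remodeller, was at -0.15 ± 0.06 there. Between the tissues 6 partners were called higher in the posterior eye (47.8% of all genes) and 11 lower (45.2%).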

How the data were processed

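RNA was sequenced from 2 tissues of 24 rats. Per the labels' protocols, full-length cDNA was amplified from little RNA with a SMART-Seq kit and made into paired-end Nextera XT libraries, a preparation that marks no strand, so reads of antisense and overlapping genes can be mixed. The authors deposited raw read counts per gene, 1 table per tissue. The submitters' processing notes name STAR 2.7.3a, HTSeq, DESeq2 and the build Rnor_6.0. No source used here gives the annotation or the counting options. For the posterior eye, 25 names of genes had become dates, and the fit of both tissues was run without those rows.

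The counts were tested with edgeR 4.0.16 (R 4.3.3) using TMM scaling, filterByExpr, 1 mean per group over 24 libraries (48 across tissues) and the quasi-likelihood F test. P-values were two-sided and adjusted by Benjamini-Hochberg over the 16401 (posterior eye), 15481 (retina) or 17153 (both) genes kept, with calls at an adjusted p under 0.05. SEs are approximate and come from the log2 fold change and F. The biological coefficient of variation was 33.4% for posterior eyes, against 12% for retinas. Levels in the comparison of tissues come from the joint scaling and differ slightly from those within a tissue.

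Correlations used log2 CPM with a prior count of 2, group means removed, and 100000 permutations within groups (Python 3.11.15, scipy 1.17.1). The level of a list is its mean log2 CPM. The 9 analysed members, the lists and the tests were chosen with earlier results of these data known. Named were all members, the 5 genes most like Fkbp5 in each tissue, and up to 4 genes of a described list with the smallest p for OVX. The labels give the animal of each library, which pairs the 2 tissues. Alternatives were DESeq2 1.42.0, limma-voom 3.58.1, RLE scaling, no filter, fits of only 2 groups, marker levels as covariates, a replicate block and leaving out each animal. The scripts were tested on simulated counts.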

Additional observations from a re-analysis of the deposited data

Results flagged for a closer look

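Among 72 sets of 6 values (9 genes, 4 groups and 2 tissues), 5 had a lowest animal far from the rest by Dixon's test at the 95% level, and chance gives about 1 in 20. Mt2A in the posterior eye of young sham animals was at 10.4 CPM in animal 1, where the next was at 19.9 and the highest at 22.3 CPM. Retinal Fkbp5 of aged OVX animals was at 26.7 CPM in animal 21, with the others at 29.6 to 31.1 CPM. Retinal Sgk1 was at 189 CPM in animal 20 of the aged OVX group, against 196 to 199 CPM in the others, and at 154 CPM in animal 13 of the aged sham group, against 192 to 214 CPM. The same animal 13 was lowest for retinal Klf9, at 104.7 CPM, with the other aged sham animals at 114 to 120.0 CPM.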

How the results depend on the processing

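The counts of called genes were the same as reported under every alternative run, with 1 exception. DESeq2 called 1 of the 9 genes, Fkbp5, for aged sham over young sham in the posterior eye, where edgeR called 0, and the cause was not tested. Of 4847 recomputed values of single genes, 4846 kept their side of the threshold and direction of call, 1 (that of Fkbp5) passed it newly and 0 called values reversed, while 168 values not called changed sign. Leaving out each animal in turn left 0 to 0 called in every comparison within a tissue and 9 to 9 between the tissues. The smallest adjusted p of Fkbp5 for aged sham over young sham among these was 0.0724 and the largest 0.605. Counts at the unadjusted p were less steady. For OVX in young retinas they ran from 3 to 5 of the 9 genes when 1 library was left out, with the low value without animal 4 or 6 of the young sham or 8 or 9 of the young OVX group, and for the interaction in the retina from 1 to 5, with the low value without animal 18 of the aged sham or 21 of the aged OVX group. In the posterior eye they ran from 4 to 6 for OVX in young animals and from 1 to 4 for the interaction.

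With the library number as a replicate block 0 genes were called in each comparison within a tissue. The correlation of same-numbered deviations ran from -0.508 to 0.681 and was not above 0.1 in every pair. Averaged over the numbers 1 to 6, it was highest for posterior eyes of young sham with aged OVX animals, at 0.314. The lowest posterior eye mean was 0.0046, for young OVX with aged OVX animals. Retinal means were at most 0.0397. Without values for differently numbered animals to set beside these, whether the numbers pair animals across groups was not tested. With the animal as a replicate block, 9 genes were called between the tissues and 0 for the difference of the OVX effect. Low counts limit Pdk4 in the retina.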

Other observations

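Clock genes, several of which respond to glucocorticoids, differed between the posterior eyes of the same groups without any of the 17 being called. Per2, a repressor of the clock loop, was at 82.1 ± 15.6 CPM in young OVX and 58.7 ± 7.31 CPM in young sham animals, a log2 fold change of 0.48 ± 0.14. Nr1d1, a nuclear receptor of the clock, was at 189 ± 40.9 CPM in young OVX and 268 ± 29.3 CPM in young sham animals (-0.50 ± 0.14). It was also lower for OVX in aged animals by value, at 152 ± 24.5 CPM in aged OVX and 197 ± 31.2 CPM in aged sham animals (-0.38 ± 0.14). Npas2, a partner of the clock activators, was at -0.62 ± 0.16 and Tef, a clock output factor, at 0.28 ± 0.08 in young posterior eyes. The edgeR adjusted p was 0.661 for Per2, Nr1d1, Npas2 and Tef in young animals and 1.0 for Nr1d1 in aged animals.

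In the retina Cry1, a clock repressor, was at 51.3 ± 2.53 CPM in young OVX and 44.2 ± 2.20 CPM in young sham animals, and the ranges did not overlap (47.8 to 53.8 CPM in OVX and 39.96 to 46.3 CPM in sham animals). The log2 fold change was 0.21 ± 0.05 (edgeR adjusted p = 0.118). Aged retinas were at 51.1 ± 2.83 CPM in OVX and 52.04 ± 2.95 CPM in sham animals, and aged sham over young sham was 0.24 ± 0.05 (edgeR adjusted p = 0.0645). Young sham animals were thus the low group for retinal Cry1, as they were for Fkbp5 and Zbtb16. These groups share the young sham animals, and the values are a description.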
